A study of Equus caballus with 4 samples.

Results

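The genes of the constitutive proteasome were examined in equine satellite cells that differentiated with or without gamma-oryzanol (GO). Members were all array probes whose gene symbol is that of a proteasome subunit, assembly factor, activator or inhibitor (*psma*, *psmb*, *psmc*, *psmd*, *psme*, *psmf* and *psmg* followed by a number), without the interferon-induced *psmb8*, *psmb9*, *psmb10* and *psme1*. The members still include *psme2*, the partner of *psme1* in the interferon-induced activator. This gave 41 genes of 13350 symbols on the array, covered by 77 probes. Each gene was represented by its probe with the highest mean log2 signal. Satellite cells are the stem cells of skeletal muscle, here isolated from the semitendinosus muscle of healthy colts. GO-treated cells received 125 nM GO for 24 h, starting 48 h after the switch to differentiation medium, and control cells received for the same time the DMSO vehicle alone, at the 0.04 µl/ml that GO-treated cells also contained. RNA of both groups was collected on day 3 of differentiation and compared on 4 two-color arrays, each with GO-treated cells in Cy5 and control cells in Cy3. Medium, serum and antibiotics were common to both groups, and the cultures came from pre-plated primary isolates, of which the study kept the best-scoring. Of the RNA samples, the study put those of highest integrity on the arrays. The labels call the arrays biological replicates without saying whether they differ in horse or culture, so the p-values measure the spread between these arrays, which may be technical.

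The proteasome is the protease that degrades proteins tagged with ubiquitin chains. Its core particle is a barrel of stacked rings: outer alpha rings (*psma* genes) gate the entrance, and inner beta rings (*psmb* genes) carry the proteolytic sites. A regulatory particle caps the barrel. The ATPases of its base (*psmc* genes) unfold the substrate and open the gate, other base subunits hold ubiquitin receptors, and the lid removes the ubiquitin chains. Assembly chaperones build both particles and leave them, and alternative activators can bind the barrel in place of the regulatory particle. Differentiating muscle cells depend on this machinery to clear regulators of the cell cycle and to remodel proteins as they fuse into myotubes.

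Each value below is the log2 of the GO-treated over the control signal on the same array, so that a value below 0 is a lower signal in GO-treated cells. On each array 63.5 to 68.9% of control signals and 57.4 to 67.0% of GO signals were well above background, and no spot was saturated. GO carried the same dye on every array, so that GO and dye effects cannot be told apart. In these bulk cultures, fewer cells of a type and less RNA per cell cannot be told apart either. Of 14 listed muscle markers, 10 were on the array, and all 10 were well above background in control cells on all 4 arrays. Of these 10 markers, 7 were past both thresholds described below and lower in GO-treated cells, and the means of all 10 lay between -0.93 (*myf5*) and -0.30 (*ckm*). All 5 endothelial markers, 2 of 3 adipocyte markers and 3 of 6 leukocyte markers were well above background in neither channel on any array. The leukocyte markers *cd14* and *cd68* were above it in control cells on all 4 arrays, with means of 0.11 and -0.28, neither past the adjusted p. Of the 7 fibroblast and matrix markers tested, *pdgfra* was higher in GO-treated cells past both thresholds (0.87, at signals of 21.8 to 69.5), *fn1* was lower at the adjusted p alone (-0.26), and the other 5 lay between -0.10 and 0.08. The part of these marker changes in the proteasome values was not tested.

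Of the 41 genes, 39 were well above background in both channels on all 4 arrays and were tested. Past both thresholds, an adjusted p of at most 0.05 (limma, Benjamini-Hochberg adjustment over 26832 probes) and a fold change of at least 1.3, were 2 genes. Both were lower in GO-treated cells: *psmd12*, a structural subunit of the lid, and *psme4*, an activator that binds the core in the nucleus. That is 5.13% of the 39, and among all 9058 genes tested 5.37% were lower past both thresholds. No proteasome gene was higher past both thresholds, against 3.33% of all genes. With limma 1 member, *psmf1*, was higher and 15 were lower at an unadjusted p under 0.05, and a plain one-sample test gave 1 higher, *psmd10*, and 16 lower at that limit. Of all genes, 17.4% were higher and 17.4% lower at that limit with limma, and 12.7% were higher and 13.6% lower with the plain test. At the adjusted p alone 6 members were lower (15.4%; all genes, 9.28%) and 0 were higher (all genes, 8.03%). The other 4 were *psme3*, *psmd1*, *psmd6* and *psme2*. The count at the adjusted p alone fell to 3, 1, 2 and 3 without array 1, 2, 3 or 4, to 0 with the plain one-sample test, and to 2 lower and 2 higher (*psmb2* and *psmd14*) without dye normalization, and it was 12 after normexp background correction and loess on the raw signals. The shares of all genes past the adjusted p in these settings are not given. These shifts thus cannot be called particular to the proteasome genes.

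Most of the remaining genes lay slightly below 0. The log2 ratio was below 0 on all 4 arrays for 19 of the 39 (48.7%; all genes, 21.0%) and above 0 on all 4 for 2 (5.13%; all genes, 21.3%). Array by array, 27, 31, 30 and 30 of the 39 genes lay below 0. The mean was below 0 for 31 genes, with a range of -0.43 to 0.26 and a median of -0.082, beside 0.0030 over all genes. These directions depended on the dye normalization. Without it 20 means were below 0, 7 genes were lower on all 4 arrays and 6 were higher. The median was then -0.00042, beside -0.021 over all genes. The shares of all genes below 0 by array, by mean, and in any count without dye normalization are not given. For 30 of the 39 genes the 95% interval of limma lay wholly inside a 1.3-fold change in either direction. The share of all genes with such an interval is not given, here or for the groups below. The counts without a share of all genes thus cannot be called particular to the proteasome genes, and those on all 4 arrays depended on the dye normalization.

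**Figure D1:**
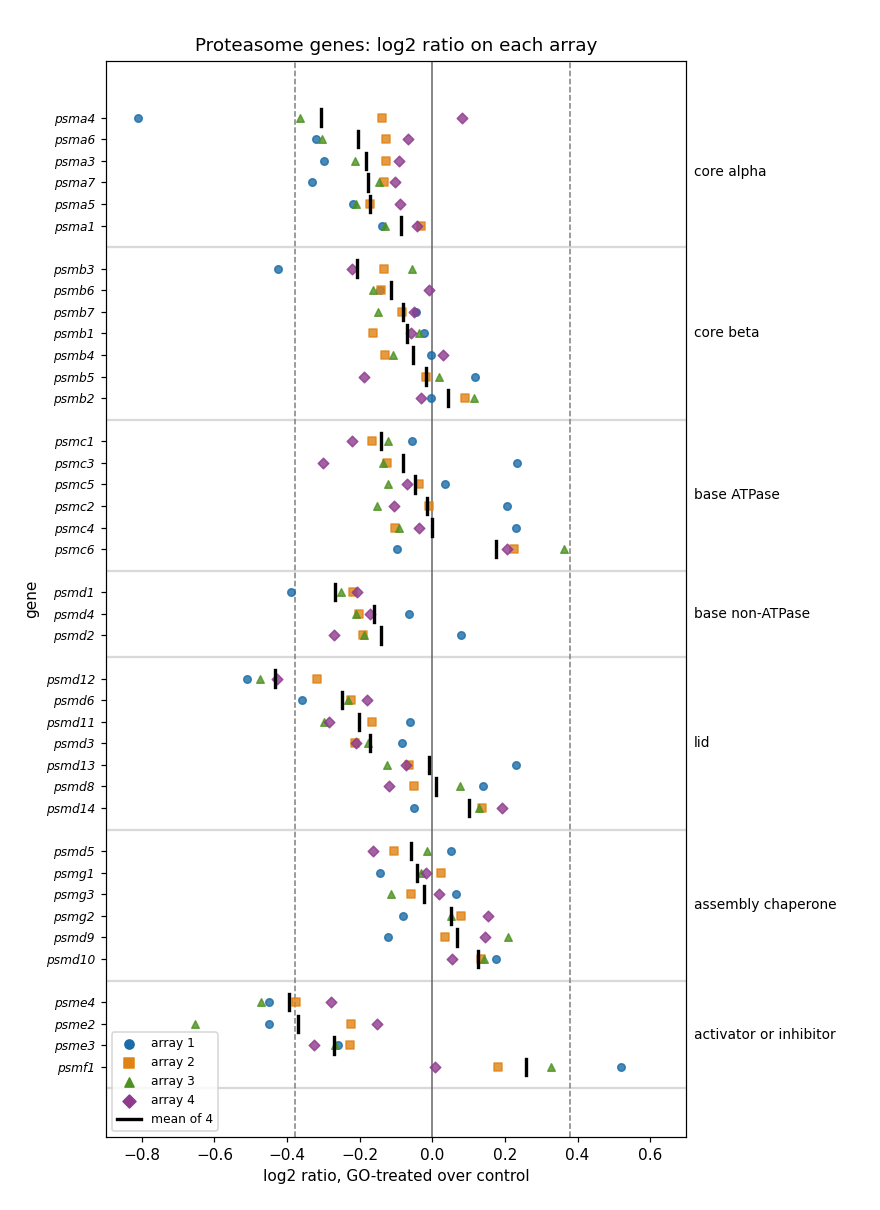
Log2 ratio of the GO over the control signal (horizontal axis) for the 39 proteasome genes tested (vertical axis, grouped by role). Symbols are the 4 arrays, black bars their means, and dashed lines the 1.3-fold threshold. Only *psmd12* and *psme4* have means beyond the dashed lines (-0.43 and -0.39), and 31 of 39 means lie below 0, a count that is 20 without dye normalization.

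Of the 15 core particle genes, 13 were tested. With limma on the deposited ratios, none was past the adjusted p in either direction. At an unadjusted p under 0.05, 0 of the 13 were higher and 5 lower with limma (all genes, 17.4% in each direction), and 0 and 6 with the plain one-sample test (all genes, 12.7 and 13.6%). After normexp and loess 5 core genes were lower at the adjusted p (*psma3*, *psma5*, *psma6*, *psma7* and *psmb3*), and without dye normalization 0 were lower and 1 was higher (*psmb2*). The shares of all genes past the adjusted p after these normalizations are not given. The means lay between -0.31 and 0.04, and 12 of 13 were below 0. The 95% interval lay inside a 1.3-fold change for 11 of the 13.

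The 3 subunits of the beta ring that cut peptide bonds are *psmb5*, with chymotrypsin-like activity, *psmb6*, with caspase-like activity, and *psmb7*, with trypsin-like activity. The log2 ratios of *psmb5* were 0.12, -0.02, 0.02 and -0.19 on arrays 1 to 4. They fell on both sides of 0, with a mean of -0.02 ± 0.13 (SD, n = 4; adjusted p = 0.887, limma) and a 95% interval of -0.18 to 0.15. *Psmb6* gave -0.14, -0.14, -0.16 and -0.01, with 3 arrays close together and array 4 nearer to 0. Its mean was -0.11 ± 0.07 (SD, n = 4; adjusted p = 0.207, limma; interval -0.25 to 0.02). *Psmb7* gave -0.04, -0.08, -0.15 and -0.05, all below 0 and all small. Its mean was -0.08 ± 0.05 (SD, n = 4; adjusted p = 0.334, limma; interval -0.22 to 0.05). A 1.3-fold change in either direction lay outside all 3 intervals. The signs of these 3 means are not settled, since without dye normalization they were 0.014, 0.13 and 0.041.

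Beside them the beta ring has structural subunits. The lowest was *psmb3*, with -0.43, -0.13, -0.06 and -0.22 on arrays 1 to 4. All 4 values were below 0, but array 1 lay far from array 3, and the mean of -0.21 ± 0.16 (SD, n = 4) had an adjusted p of 0.102 (limma). The highest was *psmb2*, with -0.0043, 0.09, 0.11 and -0.03 (mean 0.04 ± 0.07, SD, n = 4; adjusted p = 0.642, limma). Its second probe gave -0.22, -0.25, -0.15 and -0.34, a mean of -0.24 ± 0.08 (SD, n = 4; adjusted p = 0.0376, limma). The probes of *psmb2* thus did not overlap on any array, although they lie next to each other on chromosome 2 of EquCab1, at chr2:20079031-20079088 and chr2:20078958-20079017. They belong to different transcript records, and no direction is given for this gene. The means of *psmb1* and *psmb4* were -0.07 and -0.05. *Psmb11*, the beta subunit of thymic epithelium, was well above background in neither channel on any array.

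All 6 tested genes of the alpha ring had means below 0, from -0.31 to -0.09 with a median of -0.18 (5 of 6 below 0 and a median of -0.10 without dye normalization), and 5 were below 0 on all 4 arrays. The lowest was *psma4*, with -0.81, -0.14, -0.36 and 0.08. Its arrays spread more widely than those of any other tested member, and the mean of -0.31 ± 0.38 (SD, n = 4) had an adjusted p of 0.164 (limma). Without array 1 the mean was -0.14. The highest was *psma1*, with -0.14, -0.03, -0.13 and -0.04, all below 0 (mean -0.09 ± 0.06, SD, n = 4; adjusted p = 0.322, limma). Between them lay *psma3* (-0.18), *psma5* (-0.17), *psma6* (-0.20) and *psma7* (-0.18), whose adjusted p ranged from 0.0806 to 0.0980 (limma). On array 1 the alpha ring had its lowest median, -0.31, and on array 4 its highest, -0.08, with -0.13 and -0.21 on arrays 2 and 3. *Psma8*, the alpha subunit of the testis, was well above background on 3 arrays in the control channel and on 0 in the GO channel, and no fold is given for it.

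The 60-base probes behind these ratios are shown for 1 gene of each ring and 2 of the base, as examples of what was measured: *psma3* at chr24:5560672-5561504, *psmb5* at chrUn:181516299-181517072, *psmc2* at chr4:4044975-4045034 and *psmd4* at chrUn:80446000-80446059, all on the plus strand of EquCab1. The probes of *psma3* and *psmb5* span 833 and 774 bases of the genome, so each joins separate stretches of it, as in a spliced transcript. No base is in capitals, since no part of these probes is singled out.
psma3: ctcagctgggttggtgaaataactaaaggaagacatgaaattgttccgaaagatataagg
psmb5: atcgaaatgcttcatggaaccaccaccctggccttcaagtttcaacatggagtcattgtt
psmc2: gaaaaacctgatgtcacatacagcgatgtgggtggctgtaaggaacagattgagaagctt
psmd4: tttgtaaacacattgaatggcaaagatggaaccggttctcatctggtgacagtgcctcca

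With the deposited ratios none of the 6 ATPases of the base was past the adjusted p in limma, and the 95% interval of all 6 lay inside a 1.3-fold change. Limma and the plain test each gave 1 lower and 0 higher at an unadjusted p under 0.05, limits that 17.4% (limma) and 13.6% (plain test) of all genes passed as lower. The lowest was *psmc1*, with -0.06, -0.16, -0.12 and -0.22. It was the only ATPase below 0 on all 4 arrays (mean -0.14 ± 0.07, SD, n = 4; adjusted p = 0.134, limma), and its mean was -0.0054 without dye normalization and -0.19 (adjusted p = 0.0300) after normexp and loess. The highest was *psmc6*, with -0.10, 0.22, 0.36 and 0.21, below 0 on array 1 alone (mean 0.17 ± 0.19, SD, n = 4; adjusted p = 0.188, limma). The opposite pattern, above 0 on array 1 alone, was seen for *psmc2* (0.21, then -0.01, -0.15 and -0.11), *psmc3* (0.23, -0.12, -0.13 and -0.30), *psmc4* (0.23, -0.10, -0.09 and -0.04) and *psmc5* (0.04, -0.04, -0.12 and -0.07). It was not particular to the ATPases: *psmd2*, *psmd5* and *psmd13* were also above 0 on array 1 alone. The median of the 6 ATPases was 0.12 on array 1 and -0.07, -0.12 and -0.09 on arrays 2 to 4. Among the muscle markers *ckm*, a creatine kinase (0.13, -0.41, -0.36 and -0.57), and *myod1*, a myogenic transcription factor (0.11, -0.37, -0.53 and -0.64), were also above 0 on array 1 alone. All other muscle markers tested were below 0 on array 1, from -0.97 (*myf5*) to -0.08 (*actc1*). The share of all genes above 0 on array 1 alone is not given, and some of these values lay close to 0, such as -0.01 for *psmc2* and 0.04 for *psmc5*. Whether these patterns are linked was not tested.

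The base also holds *psmd1* and *psmd2*, large scaffolds to which ubiquitin receptors and shuttle factors dock, and the ubiquitin receptor *psmd4*. *Psmd1* gave -0.39, -0.22, -0.25 and -0.21, all below 0. Its mean of -0.27 ± 0.08 (SD, n = 4) was past the adjusted p (0.0297, limma) and below 1.3-fold. Its second probe gave a mean of -0.11 with an adjusted p of 0.294 (limma), and without dye normalization the first probe gave -0.07 (adjusted p = 0.549). Its adjusted p was between 0.0548 and 0.0997 with any 1 array left out. *Psmd2* gave 0.08, -0.19, -0.19 and -0.27, with array 1 apart from the others (mean -0.14 ± 0.15, SD, n = 4; adjusted p = 0.217, limma). *Psmd4* gave -0.06, -0.20, -0.21 and -0.17, all below 0 (mean -0.16 ± 0.07, SD, n = 4; adjusted p = 0.0986, limma).

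The lid contained the proteasome gene with the lowest mean, *psmd12*. Its control signals were 1621, 1098, 1448 and 1408 on arrays 1 to 4, and its signals in GO-treated cells were 1138, 881, 1042 and 1047. The GO signal was below the control signal on every array, with log2 ratios of -0.51, -0.32, -0.47 and -0.43. The mean was -0.43 ± 0.08 (SD, n = 4), a 1.35-fold lower signal, with an adjusted p of 0.00751 (limma) and a 95% interval of -0.58 to -0.29. A second probe gave -0.62, -0.40, -0.44 and -0.42, a mean of -0.47 ± 0.10 (SD, n = 4; adjusted p = 0.00667, limma). Both probes of this gene were thus past both thresholds, and the brighter one remained so in limma with any 1 array left out, at a mean between -0.47 and -0.41. The plain one-sample test gave the brighter probe an adjusted p of 0.0653.

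The probes of *psmd12* are shown because they are the proteasome sequences with the lowest ratios. They lie end to end on the minus strand of chromosome 11 of EquCab1, with 0 bases between them, at chr11:13043834-13043893 and chr11:13043774-13043833. The brighter one ends in the letters TAA, which spell a stop codon and are in capitals.
psmd12, second probe: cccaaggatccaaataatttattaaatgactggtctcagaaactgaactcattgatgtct
psmd12, brighter probe: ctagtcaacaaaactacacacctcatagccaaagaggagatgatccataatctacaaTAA

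The other lid genes were spread on both sides of 0. *Psmd14*, the enzyme that cuts ubiquitin chains off the substrate, gave -0.05, 0.14, 0.13 and 0.19. It was above 0 on all arrays except array 1, with a mean of 0.10 ± 0.10 (SD, n = 4; adjusted p = 0.297, limma) and an interval of -0.05 to 0.25. Without dye normalization its mean was 0.33 (adjusted p = 0.0360, limma), past the adjusted p and below 1.3-fold. *Psmd6*, another structural subunit of the lid, gave -0.36, -0.22, -0.23 and -0.18, all below 0 (mean -0.25 ± 0.08, SD, n = 4; adjusted p = 0.0345, limma). Its adjusted p was between 0.0633 and 0.118 with any 1 array left out, and 0.145 (-0.18) without dye normalization. The structural subunits *psmd3* and *psmd11* had means of -0.17 and -0.20 with adjusted p of 0.0825 and 0.0751 (limma), and were below 0 on all 4 arrays. *Psmd8* and *psmd13* had means of 0.01 and -0.0078.

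Core and regulatory particle did not differ beyond the spread between arrays. The median of the 13 core genes was -0.14, -0.13, -0.15 and -0.06 on arrays 1 to 4. That of the 16 regulatory particle genes was -0.05, -0.14, -0.14 and -0.18. The core minus regulatory difference was -0.09, 0.02, -0.0038 and 0.12, so it changed sign between arrays, and its mean was 0.0091 ± 0.08 (SD, n = 4). The core median was the lower of the pair on array 1 and the higher on array 4. Both medians were below the median of all genes tested on all 4 arrays, which was 0.02, -0.0085, 0.01 and -0.01, but without dye normalization the mean over arrays was -0.0055 for the core and -0.02 for the regulatory particle.

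**Figure D2:**
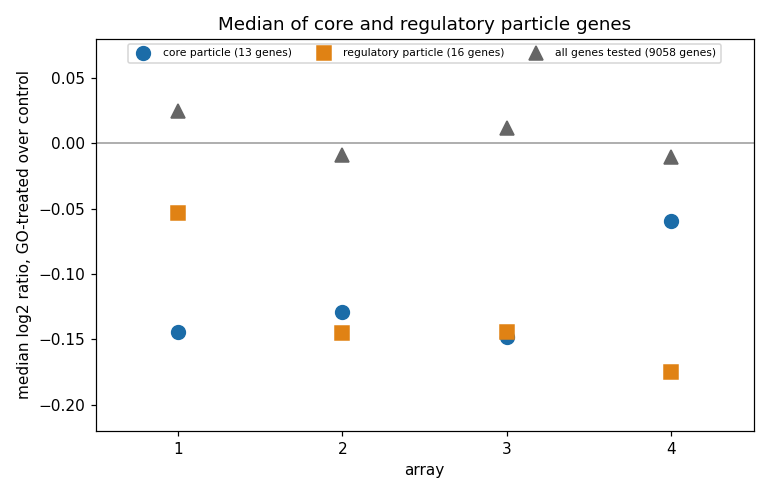
Median log2 ratio of the GO over the control signal (vertical axis) on each array (horizontal axis) for 13 core particle genes, 16 regulatory particle genes and all 9058 genes tested. The core median is lower than the regulatory median on array 1 (-0.14 and -0.05) and higher on array 4 (-0.06 and -0.18), and with dye normalization both lie below the all-gene median on all 4 arrays.

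Among the 4 members that act on the core from outside, the 3 activators were lower in GO-treated cells at the adjusted p (75%; all genes, 9.28%), and the inhibitor was not. The excluded activator gene *psme1* was not past the adjusted p (0.254, limma). Without dye normalization *psme4* alone of the 3 remained past it. *Psme4* encodes a nuclear activator that caps the core without ubiquitin or ATP. Its control signals were 3220, 2610, 3305 and 2701, and its signals in GO-treated cells were 2358, 2011, 2384 and 2225, lower on every array. The log2 ratios were -0.45, -0.38, -0.47 and -0.28. The mean of -0.39 ± 0.09 (SD, n = 4), with an adjusted p of 0.0101 (limma) and an interval of -0.54 to -0.25, was just past the fold threshold. Its only probe, at chr15:42853537-42853596 of EquCab1, was no longer past both thresholds without array 1 (-0.38, adjusted p = 0.0291), array 2 (-0.40, adjusted p = 0.0530) or array 3 (-0.37, adjusted p = 0.0489).

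*Psme3*, which forms another nuclear activator, gave -0.26, -0.23, -0.27 and -0.33, with the smallest spread among the members past the adjusted p. Its mean was -0.27 ± 0.04 (SD, n = 4; adjusted p = 0.0228, limma), and its second probe gave -0.11 (adjusted p = 0.187, limma). Its adjusted p was 0.0419 without array 1 and 0.0862, 0.0871 and 0.0781 without array 2, 3 or 4. *Psme2* pairs with *psme1* in the interferon-induced activator. It gave -0.45, -0.23, -0.65 and -0.15, below 0 on all arrays but widely spread, with a mean of -0.37 ± 0.23 (SD, n = 4; adjusted p = 0.0403, limma). Without array 4 it was past both thresholds (-0.44, adjusted p = 0.0395), and without array 1, 2 or 3 it was not past the adjusted p (0.101, 0.0905 and 0.120), nor was it without a filter on dim probes (0.151). *Psmf1*, an inhibitor that binds the core, had the highest mean of all proteasome genes. Its values were 0.52, 0.18, 0.33 and 0.0087, above 0 on all arrays but close to 0 on array 4, and the mean of 0.26 ± 0.22 (SD, n = 4) had an adjusted p of 0.0934 (limma). Without dye normalization *psme3* was at -0.15 (adjusted p = 0.152) and *psme2* at -0.22 (adjusted p = 0.162).

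The 5 probes of *psme2* are shown because they count as 1 sequence and not as 5 measurements. They lie on the plus strand of EquCab1 within 66 bases, chrUn:180679369-180679434, their starts fall within 6 bases of each other, and the 54 bases that all 5 share are in capitals. Their means lay between -0.37 and -0.35.
psme2, start 180679369: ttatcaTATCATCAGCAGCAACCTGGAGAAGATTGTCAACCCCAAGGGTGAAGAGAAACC
psme2, start 180679370: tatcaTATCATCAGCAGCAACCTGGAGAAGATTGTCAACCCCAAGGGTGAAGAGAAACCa
psme2, start 180679371: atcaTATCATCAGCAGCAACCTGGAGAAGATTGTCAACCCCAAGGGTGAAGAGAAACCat
psme2, start 180679374: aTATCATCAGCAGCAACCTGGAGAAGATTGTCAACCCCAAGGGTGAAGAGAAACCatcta
psme2, start 180679375: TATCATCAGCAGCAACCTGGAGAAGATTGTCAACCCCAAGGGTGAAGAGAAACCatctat

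Of the excluded interferon-induced genes, the catalytic subunits *psmb8* (-0.46, -0.45, -0.92 and -0.48) and *psmb9* (-0.70, -0.48, -1.01 and -0.50) were lower in GO-treated cells past both thresholds (adjusted p of 0.0123 and 0.00874, limma). The *psmb8* probe was dim, at control signals of 63.8 to 113 and GO signals of 45.8 to 68.5. Results for *psmb8* and *psmb9* with other normalizations or an array left out are not given. The lowest value of *psmb8* and *psmb9* was on array 3, as was that of *psmb10* and *psme1*. The share of all genes with their lowest value on that array is not given. *Psmb10* and *psme1*, with means of -0.09 and -0.14, were not past the adjusted p (0.355 and 0.254, limma).

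With the deposited ratios of all 4 arrays, the 6 assembly chaperones had the class median closest to 0 (0.01). This rank depended on the setting. Without dye normalization their median was 0.05, beside 0.02 for the ATPases and 0.04 for the beta ring. Without array 3 or array 4 the median of the ATPases was closer to 0 (0.0029 and 0.0014) than that of the chaperones (0.014 and -0.0031). With limma 0 were past the adjusted p and 0 had an unadjusted p under 0.05 in either direction, and with the plain test 1 was higher at that limit. The 95% interval of all 6 lay inside a 1.3-fold change. The highest was *psmd10*, a chaperone of the base that is also known as the oncoprotein gankyrin, with 0.18, 0.13, 0.14 and 0.05. It was above 0 on all 4 arrays, with a mean of 0.13 ± 0.05 (SD, n = 4; adjusted p = 0.157, limma), and was the 1 chaperone with an unadjusted p under 0.05 in the plain test. The lowest was *psmd5*, another chaperone of the base, with 0.05, -0.10, -0.02 and -0.16 (mean -0.06 ± 0.09, SD, n = 4; adjusted p = 0.545, limma). The third base chaperone, *psmd9*, had a mean of 0.07, and *psmg1*, *psmg2* and *psmg3*, which help to build the alpha ring, had means of -0.04, 0.05 and -0.02.

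Several probes could be compared for 17 genes, and in 13 of them all probe means were on the same side of 0. The exceptions were *psmb2*, *psmd5*, *psmd9* and *psmd13*. For *psmd2* 3 probes lay between -0.26 and -0.14, and for *psma7* 5 probes lay between -0.18 and -0.14. Probes of the same gene often overlap, as those of *psme2* do, and are then not independent.

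**Figure D3:**
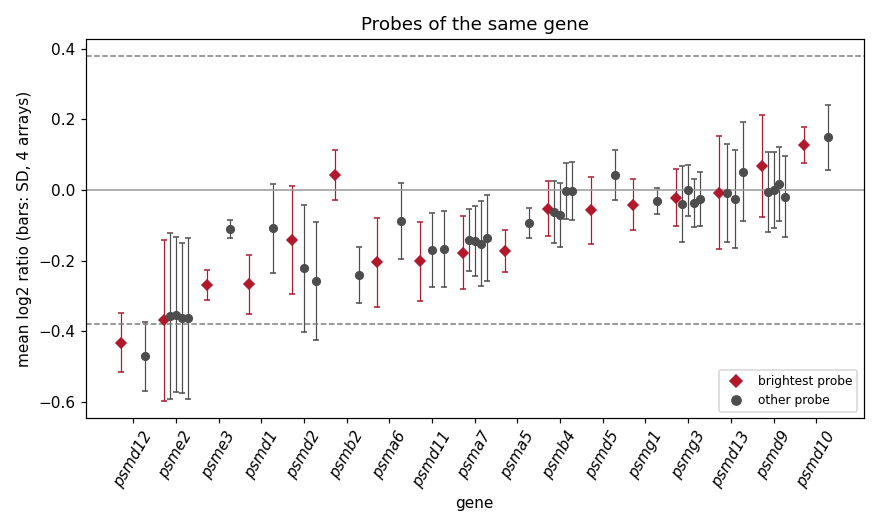
Mean log2 ratio of the GO over the control signal (vertical axis, bars SD over 4 arrays) for every tested probe of the 17 genes with more than 1 (horizontal axis). Red diamonds are the brightest probe of each gene, gray circles the others, and dashed lines the 1.3-fold threshold. Both *psmd12* probes (-0.43 and -0.47) lie beyond it, and those of *psmb2* (0.04 and -0.24) lie on opposite sides of 0.

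The position of the proteasome genes relative to 0 followed the dye normalization. With the genes tested divided by probe signal into 4 equal groups, 34 of the 39 proteasome genes were in the brightest group. With the ratios as deposited the median of that group was -0.0021 and the proteasome median -0.082. After normexp and loess on the raw signals these were -0.01 and -0.11, and after a further loess 0.00081 and -0.079. Without dye normalization they were 0.074 and -0.00042. The proteasome median was thus below that of the brightest group in all 4 settings, by an amount that was small beside the 1.3-fold threshold (0.38 on the log2 scale).

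**Figure D4:**
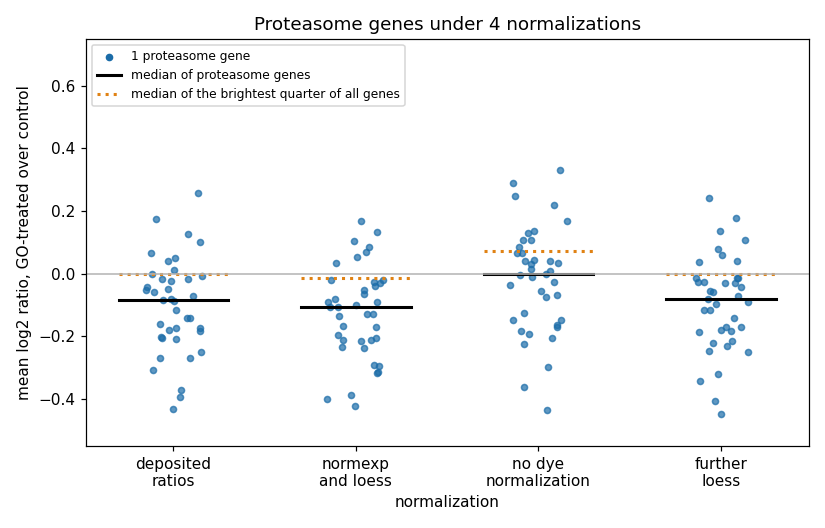
Mean log2 ratio of the GO over the control signal (vertical axis) for each of the 39 proteasome genes under 4 normalizations (horizontal axis). Points are genes, black lines their median, and dotted lines the median of the brightest of 4 equal groups of genes tested. Without dye normalization the proteasome median is -0.00042 and that of the brightest group 0.074, and with the deposited ratios they are -0.082 and -0.0021.

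Other genes of the pathway were taken from a list of ubiquitin genes, ubiquitin-activating enzymes, shuttle factors, proteasome-bound enzymes and transcriptional regulators. Of 27 on the array 26 were tested. Past both thresholds 0 were higher (all genes, 3.33%) and 1 was lower (3.85%; all genes, 5.37%), *vcp*, the ATPase that pulls ubiquitinated proteins out of complexes. Limma gave 4 higher and 6 lower at an unadjusted p under 0.05 (all genes, 17.4% in each direction), and the plain test gave 5 higher and 6 lower (all genes, 12.7 and 13.6%). *Vcp* gave -0.17, -0.37, -0.56 and -0.49, lower on all arrays and least on array 1 (mean -0.40 ± 0.17, SD, n = 4; adjusted p = 0.0208, limma). At the adjusted p alone 2 were higher (7.69%; all genes, 8.03%) and 6 were lower (23.1%; all genes, 9.28%). The highest was *rps27a*, which encodes ubiquitin fused to a ribosomal protein (mean 0.27, adjusted p = 0.0321, limma), and it was followed at the adjusted p by *faf1*, a partner of *vcp* (0.22). Beside *vcp* the lower genes were *mafg* (-0.33), a partner of the *nfe2l1* family of transcription factors, the polyubiquitin gene *ubc* (-0.29), and 3 genes of proteasome-bound factors, *kiaa0368* (-0.26), *pithd1* (-0.23) and *zfand5* (-0.20). The median of the 26 was 0.01. All these pathway values rest on the deposited ratios of all 4 arrays. Results for these genes without dye normalization or with an array left out are not given.

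*Nfe2l1*, the transcription factor known for raising proteasome gene expression when proteasome activity is low, gave 0.06, -0.21, -0.21 and 0.47. The arrays disagreed in sign, and the mean of 0.03 had an adjusted p of 0.881 (limma). Its relative *nfe2l2* had a mean of 0.08 (adjusted p = 0.359, limma), and *pomp*, which guides the maturation of the core, a mean of 0.12 (adjusted p = 0.205, limma). These 3 were singled out after their values were seen.

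Probes of the lid subunit *psmd7* and of the chaperone *psmg4* carry no symbol in the array files and were found by their description, so they are not among the 41 genes. *Psmd7* gave -0.50, -0.21, -0.29 and -0.32, below 0 on all arrays, with a mean of -0.33 ± 0.12 (SD, n = 4; adjusted p = 0.0217, limma) that was below 1.3-fold. The 5 probes of *psmg4* had means from -0.02 to 0.00057, with adjusted p from 0.836 to 0.995 (limma). *Psma2* of the alpha ring was not analysed here.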

How the data were processed

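RNA of GO-treated cells (Cy5) and control cells (Cy3) was hybridized together on 4 arrays of 1 slide. The authors processed the scans with Feature Extraction (version 10.10.1.1 in the file headers). Per the file headers, the deposited log10 ratios come from background-subtracted, detrended and linear-lowess normalized signals. The deposited intensity values of each channel (mean, background, background-subtracted and processed signals) were used for the filter, for brightness and for other normalizations. Here the ratios were converted to log2, control and outlier spots were left out, and spots of the same probe were averaged (43603 probes). The 26832 probes whose GO signal, or whose control signal, was well above background on all 4 arrays were tested against 0, two-sided, with limma (version 3.58.1, lmFit and eBayes, prior SD 0.144 with 3.60 degrees of freedom beside 3 residual) in R (version 4.3.3) with data.table (version 1.17.8). P-values were adjusted over these probes by Benjamini and Hochberg. The thresholds, adjusted p at most 0.05 and fold change at least 1.3, are those of the study's methods, which name no test. The number of arrays limits the precision. Over these probes the ratios of any pair of arrays had a correlation of 0.45 to 0.68.

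Proteasome genes with values on each array were those past both thresholds, *psmb5*, *psmb6*, *psmb7*, *psmd14*, and the highest and lowest gene of each class; other members with array values were picked after their values were seen. The members and lists were chosen with earlier results of these data known. Medians over genes are descriptions without a test. Alternatives were normexp (offset 50) with loess, no dye normalization with centring on the median, a further loess, other filters on dim probes, a plain one-sample test, channels as separate samples, array weights, each array left out, the adjusted p alone, and the mean over probes. A planned search of promoters and a check of probes against proteins were not done, because neither sequence was used here. Probe positions were taken from the files (EquCab1). The authors' series table repeats these ratios and was not used. The result of 1 marker gene is not reported here.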

Additional observations from a re-analysis of the deposited data

Results flagged for a closer look

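Of the 39 proteasome genes tested, 2 had 1 array far from the other 3 by Dixon's test at its 95% critical value for 4 values, and chance alone marks about 1 in 20. For *psmb6* the gap was 0.851 of the range: array 4 was at -0.01, the others between -0.16 and -0.14. For *psmd13* the gap was 0.83 of the range: array 1 was at 0.23, the others between -0.12 and -0.06. Neither gene was past the adjusted p (limma).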

How the results depend on the processing

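The 2 lower genes depended on the fit. Their count was 1 without dye normalization (*psmd12*; *psme4* at -0.36, adjusted p = 0.0192, was below 1.3-fold), 0 with the plain one-sample test (*psmd12* 0.0653, *psme4* 0.0705) and 0 with the channels as separate samples without the array as a block (0.233 and 0.194). It was 3 after normexp and loess (with *psme2*), 6 at the adjusted p alone, and 1 to 3 with each array left out: *psmd12* alone without array 1, 2 or 3, and *psmd12*, *psme4* and *psme2* without array 4. At the adjusted p alone, normexp and loess gave 12 lower members, array weights 9, the fit without a filter 3, the mean over probes 4, no dye normalization 2 lower and 2 higher (*psmb2* and *psmd14*), and leaving out an array 1 to 3. No alternative gave a higher gene past both thresholds. The shares of all genes past the thresholds under these alternatives are not given, so the shifts in these counts cannot be called particular to the proteasome genes. The median over members was -0.00042 without dye normalization, -0.09 to -0.07 with each array left out, and -0.11 to -0.08 otherwise. The core minus regulatory difference lay between -0.03 and 0.04 with each array left out, and between -0.0030 and 0.02 otherwise. Without dye normalization 11 members turned sign, among them *psmb5* (0.014), *psmb6* (0.13) and *psmb7* (0.041), and with each array left out 1 to 5 did. Signs also turned for *psmb5* without array 4 (0.040, with the others left out down to -0.062), and for *psmb2* with the mean over its probes (-0.10). None of the turned values printed here was past the adjusted p (limma). The cause of these shifts was not tested. Arrays have no read depth, and every tested member was well above background in both channels on all 4 arrays.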
